A study of Homo sapiens with 3 samples.

Results

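Levels of 9 genes that mark the primed state of human pluripotent cells, ZIC2, ZIC5, OTX2, SFRP2, CD24, THY1, SALL2, CYTL1 and PODXL, were read from RNA-seq of H9 cells. The genes were taken by name from a given list, and each was matched from its Ensembl identifier to its GENCODE symbol, so that they are 9 of the 58051 genes in the deposited counts. H9 is a widely used line of human embryonic stem cells. All 3 replicates came from untreated wild-type H9 cells, grown without feeder cells on vitronectin in Essential 8 Flex medium, and there was no second condition. Total RNA was depleted of ribosomal RNA before sequencing, and the gene counts of replicates 1, 2 and 3 summed to 10390984, 12024802 and 8655155. The labels do not say whether the replicates were separate cultures, so the spread between them may be technical. Levels are given in TPM, a measure per length that divides the count of a gene by the joined length of its exons and scales each replicate to the same total. Genes were sorted into expression classes after the rule of the study, as nonexpressed below 0.01 TPM and otherwise as low, medium or high by 3 quantiles, which were taken here over protein-coding genes. The high class began at 26.96 TPM and the low class ended at 3.35 TPM.

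Human pluripotent cells can be held in more than one state. Naive cells resemble the inner cell mass before implantation, and primed cells, the state of conventional embryonic stem cell cultures, resemble the epiblast after implantation. Primed cells depend on FGF and activin signals and express early regulators of ectoderm, such as ZIC and OTX factors, while factors such as KLF17 and TFCP2L1 mark the naive state. Several of the 9 genes encode surface proteins that are stained to tell both states apart.

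Of the 9 genes, 8 were in the high class in the mean and in each replicate taken alone, against 28.8% of protein-coding genes, a share that the quantiles fix. CYTL1 was the exception, in the low class. The median of the 9 means was 345 TPM, and that of all 19629 protein-coding genes was 7.10 TPM. Together the 9 genes held 0.484%, 0.472% and 0.480% of all TPM in replicates 1, 2 and 3, with a mean of 0.479 ± 0.00583% (SD, n = 3). CD24 alone held 47.6 ± 1.41% (SD, n = 3) of their sum. The levels of the 8 genes in the high class spanned 27.9-fold, from OTX2 to CD24.

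The list holds 4 transcription factor genes. ZIC2 (ENSG00000043355, chromosome 13, 99981784 to 99986765, plus strand) encodes a zinc finger factor of the early epiblast and forebrain. It had 356, 341 and 407 TPM in replicates 1, 2 and 3, a mean of 368 ± 34.5 TPM (SD, n = 3), from 3045, 3398 and 2971 reads. Replicate 3 was highest. ZIC5 (ENSG00000139800, chromosome 13, 99962964 to 99971767, minus strand) is its neighbor, in the opposite direction, and their annotated starts lie 10017 bp apart. ZIC5 had 133, 134 and 145 TPM, a mean of 138 ± 6.83 TPM (SD, n = 3), and replicate 3 was again highest. The ratio of ZIC2 to ZIC5 was 2.67, 2.55 and 2.80 in the 3 replicates. The neighbors thus kept unequal levels, with no overlap of their ranges.

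OTX2 (ENSG00000165588, chromosome 14, 56799905 to 56816693, minus strand) encodes a homeodomain factor of the anterior epiblast and neural plate. It had 64.6, 76.2 and 103.8 TPM, a mean of 81.5 ± 20.2 TPM (SD, n = 3), from 571, 784 and 783 reads. Replicate 3 was the highest and replicate 1 the lowest. Its coefficient of variation, the SD as a share of the mean, was 24.7%, while the median over high-class genes was 5.03% and only 0.318% of them had a larger one. SALL2 (ENSG00000165821, chromosome 14, 21521080 to 21537216, minus strand) encodes a zinc finger factor related to SALL4. It had 375, 350 and 311 TPM, a mean of 345 ± 32.5 TPM (SD, n = 3), and replicate 3 was the lowest, opposite to OTX2 and ZIC2.

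The surface proteins included the gene with the highest level of the 9. CD24 (ENSG00000272398, chromosome 6, 106969831 to 106975627, minus strand) encodes a small, heavily glycosylated protein held in the membrane by a lipid anchor. It had 2224, 2299 and 2309 TPM, a mean of 2277 ± 46.3 TPM (SD, n = 3), and ranked 26 among the protein-coding genes. Its replicates lay within a coefficient of variation of 2.03%. PODXL (ENSG00000128567, chromosome 7, 131500262 to 131558217, minus strand) encodes podocalyxin, a sialomucin that carries carbohydrate epitopes used to stain human pluripotent cells. It had 759, 736 and 722 TPM, a mean of 739 ± 18.5 TPM (SD, n = 3), and ranked 129. THY1 (ENSG00000154096, chromosome 11, 119415476 to 119424985, minus strand) encodes CD90, another lipid-anchored glycoprotein, which is also found on fibroblasts and neurons. It had 156, 144 and 134 TPM, a mean of 145 ± 11.2 TPM (SD, n = 3).

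The genes of both secreted proteins on the list lay far apart. SFRP2 (ENSG00000145423, chromosome 4, 153780591 to 153789083, minus strand) encodes a soluble relative of the Frizzled receptors that binds WNT ligands. It had 765, 644 and 670 TPM, a mean of 693 ± 63.7 TPM (SD, n = 3), and ranked 136. CYTL1 (ENSG00000170891, chromosome 4, 5014586 to 5019458, minus strand) encodes a small cytokine-like protein first described in blood progenitor cells. It had 14, 3 and 6 reads, which are 5.44, 1.00 and 2.73 TPM, with exact 95% Poisson intervals of 2.97 to 9.12, 0.207 to 2.93 and 1.00 to 5.95 TPM. PCR duplicates were not told apart by molecular tags, so these intervals hold for counting error alone. The mean was 3.06 ± 2.24 TPM (SD, n = 3), and without replicate 1 it was 1.87 TPM. Taken alone, replicate 1 put CYTL1 in the medium class and the others in the low class. OTX2, the next gene above it, had 26.7 times the mean level of CYTL1, and the replicates of both did not overlap. More protein-coding genes, 58.4%, lay above CYTL1 than below it.

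**Figure D1:**
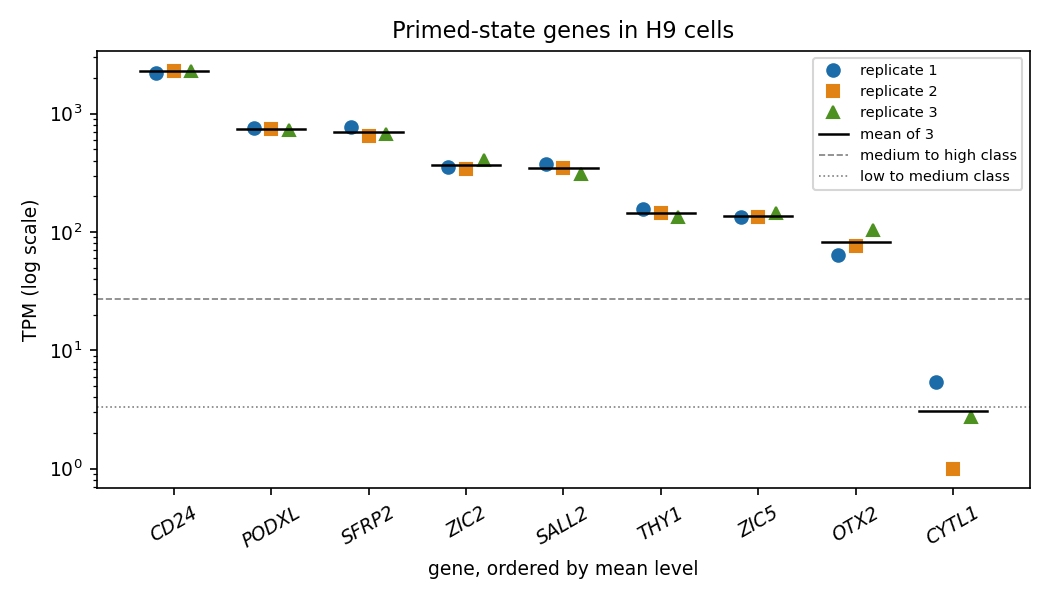
TPM of the 9 primed-state genes (log scale) in each H9 replicate, with the mean of 3 as a line and the class boundaries as dashed and dotted lines. All 8 genes other than CYTL1 have at least 64.6 TPM in every replicate, and CYTL1 lies between 1.00 and 5.44 TPM.

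Ordered by mean TPM, the genes were CD24, PODXL, SFRP2, ZIC2, SALL2, THY1, ZIC5, OTX2 and CYTL1. Of the 8 pairs of neighbors in this order, 5 had separate ranges over the replicates and 3 overlapped. PODXL and SFRP2 differed by 45.6 TPM, less than the SD of SFRP2, and SFRP2 was the higher of them in replicate 1. ZIC2 and SALL2 differed by 22.7 TPM, less than either SD, and ZIC2 was the higher of them in 1 replicate only. THY1 and ZIC5 differed by 7.10 TPM, less than the SD of THY1. CD24 stood 3.08 times above PODXL, SFRP2 1.88 times above ZIC2, SALL2 2.39 times above THY1 and ZIC5 1.69 times above OTX2. With the canonical transcript of each gene as its length, ZIC5 fell to 83.0, SFRP2 to 418 and CYTL1 to 1.84 TPM, with the order kept.

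Promoter sequence was taken from RefSeq (GRCh38.p14) for 7 of the 9 genes, as windows from 250 bases before an annotated start to 50 bases after it. No window for PODXL or THY1 was in that table. The start sites used by H9 cells were not measured, and OTX2, ZIC5 and CD24 have more than 1 window. The 250 bases before the start are shown for a gene of high level that holds an octamer, for ZIC2, which holds several GC boxes, and for CYTL1, the gene outside the high class. Capitals mark the octamer ATGCAAAT, the letters bound by POU factors such as POU5F1, and the GC box GGGCGG, on either strand. The octamer is ATTTGCAT where it lies on the other strand.

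SFRP2 (chr4:153789084-153789333, minus strand): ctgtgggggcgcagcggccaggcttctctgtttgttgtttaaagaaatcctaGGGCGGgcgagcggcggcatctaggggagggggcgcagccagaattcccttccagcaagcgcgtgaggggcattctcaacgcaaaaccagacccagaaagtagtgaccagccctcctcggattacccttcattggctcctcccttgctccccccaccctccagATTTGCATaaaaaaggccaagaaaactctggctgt
ZIC2 (chr13:99981534-99981783, plus strand): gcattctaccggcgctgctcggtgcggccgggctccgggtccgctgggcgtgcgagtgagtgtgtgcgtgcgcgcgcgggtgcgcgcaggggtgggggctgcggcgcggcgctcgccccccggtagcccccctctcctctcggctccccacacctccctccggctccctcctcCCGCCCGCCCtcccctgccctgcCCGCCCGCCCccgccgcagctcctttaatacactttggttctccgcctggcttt
CYTL1 (chr4:5019459-5019708, minus strand): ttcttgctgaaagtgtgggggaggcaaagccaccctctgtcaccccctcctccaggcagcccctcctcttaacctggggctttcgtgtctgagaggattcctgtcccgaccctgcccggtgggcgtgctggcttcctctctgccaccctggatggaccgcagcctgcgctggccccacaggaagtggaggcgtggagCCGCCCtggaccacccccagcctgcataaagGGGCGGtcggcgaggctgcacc

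The octamer began 35 bases before the start of SFRP2 and was found in no other window of the 9 genes, against 1.77% of all 35116 windows. A GC box was found in 6 of the 12 windows of the 7 genes, that of CYTL1 among them, and in 45.0% of all windows. In ZIC2, 4 GC boxes began 77, 73, 54 and 50 bases before the start, and they overlap in pairs. None of the 7 genes had the TATA box TATAAA on either strand, which 11.5% of all windows held. The CCAAT box CCAAT, on either strand, was found in 6 of the 12 windows, of 4 genes, and in 34.6% of all windows. Windows of the same gene can overlap, as for ZIC5 and CD24, so they are not independent. A CCAAT box of ZIC5 was counted in both of its overlapping windows. CpG dinucleotides, which cluster in the promoters of many widely expressed genes, numbered 35 in ZIC2, 15 in SFRP2, 14 in CYTL1 and 3 in SALL2. The windows of OTX2, also in the high class, had 6 and 9. Those of ZIC5 had 18, 22 and 33, and those of CD24 had 21, 36 and 25. Windows of high-class protein-coding genes had a median of 26 CpGs and those of nonexpressed genes 3. SALL2, with 345 TPM, was thus at the median of nonexpressed genes, while CYTL1, with 3.06 TPM, was at the median of all windows, 14. The window of SALL2 was set on a start at 21537121, while its GENCODE gene begins at 21537216 on the minus strand. A match of letters does not show that a factor binds there.

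Paralogs of the listed genes were compared in TPM, since related genes can stand in for each other. Over ZIC1, ZIC2, ZIC4 and ZIC5, zinc finger factors with a related DNA-binding domain, ZIC2 and ZIC5 held 82.7 ± 0.791% (SD, n = 3) of the summed TPM. ZIC1 had 102 ± 11.1 TPM (SD, n = 3), in the high class, and ZIC4 had 4.48 ± 0.649 TPM (SD, n = 3). ZIC2 lay above the other 3 without overlap of ranges, at 2.68 times ZIC5 and 3.62 times ZIC1. OTX2 held 98.6 ± 0.490% (SD, n = 3) of the TPM of OTX2, OTX1 and CRX. OTX1 had 1, 4 and 2 reads, and CRX, a factor of photoreceptors, had 17, 16 and 9.

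All 4 SALL genes were in the high class, and SALL2 held 43.1 ± 3.24% (SD, n = 3) of their TPM. SALL4, the member known for its role in pluripotent cells, had 259 ± 5.40 TPM (SD, n = 3), SALL1 had 108 ± 2.64 and SALL3 had 87.8 ± 10.9 TPM. SALL2 was 1.33 times SALL4 in the mean, with ranges that did not overlap. Among the secreted Frizzled relatives, SFRP2 was 1.80 times SFRP1, which had 385 ± 63.0 TPM (SD, n = 3), and together they were the only 2 of the 5 genes in the high class. FRZB had 11.2, 16.4 and 25.6 TPM and was again highest in replicate 3. SFRP5 had 6, 13 and 10 reads, and SFRP4 had 1 read in replicate 1 and none in the others, where a count of 0 allows up to 0.385 TPM in the shallowest replicate. PODXL was 19.6 times its relative PODXL2, which had 37.7 ± 0.715 TPM (SD, n = 3), and CD34, the third of these sialomucins and a marker of blood progenitors and vessels, had 12, 11 and 9 reads.

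**Figure D2:**
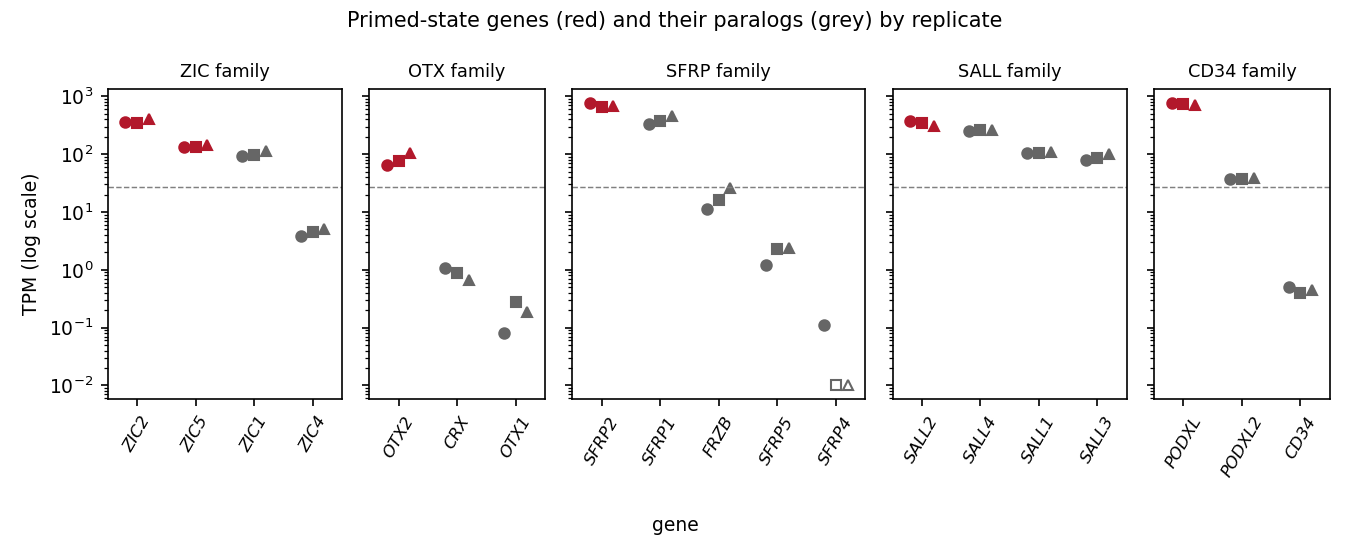
TPM (log scale) of the listed genes in red and their paralogs in grey, by family, with circles, squares and triangles for replicates 1, 2 and 3 and a dashed line at the start of the high class. Open symbols at 0.01 are replicates without a read, both of SFRP4. ZIC2, OTX2, SFRP2, SALL2 and PODXL are each the highest of the genes drawn beside them.

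The list was set beside markers of other states and cell types. All these lists were chosen with earlier results of these data known, so they are not an independent check of the label. Of 14 further genes linked to the primed state, 13 were in the high class, with means up to 3256 TPM for the chromatin protein gene HMGA1 and 1200 TPM for DNMT3B, a DNA methyltransferase, which had at least 1192 TPM in each replicate. B3GAT1, which makes the CD57 epitope, was in the medium class, with 18.7 ± 1.04 TPM (SD, n = 3). Of 14 naive-state genes, 1 was in the high class, 5 in the medium, 7 in the low and 1 in the nonexpressed class. ZFP42, also known as REX1, was the one in the high class, with 447, 450 and 394 TPM, and is expressed by cells of both states. The other 13 had means of at most 16.1 TPM, that of DPPA3, and no replicate above 18.9 TPM, below the lowest replicate of any listed gene except CYTL1, 64.6 TPM. The naive factor KLF17 had 0, 1 and 0 reads, TFCP2L1 had 120, 180 and 87 reads or 5.15 ± 1.10 TPM (SD, n = 3), and ARGFX had none, which allows up to 0.268 TPM in the shallowest replicate. CYTL1, at 3.06 ± 2.24 TPM, lay among the naive genes, between SUSD2 at 3.35 ± 0.971 and DPPA5 at 2.78 ± 2.22 TPM (SD, n = 3), with overlapping ranges. The direction follows from how the lists were chosen and was not tested. The shared factors POU5F1, SOX2 and NANOG were all in the high class, with means from 275 to 799 TPM.

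Some listed genes also mark differentiated cells. THY1 marks fibroblasts, and of 8 fibroblast or mesenchyme genes none was in the high class, against 28.8% of protein-coding genes. This count depends on the choice of genes. VIM and CDH2, also expressed in mesenchyme, were placed with the further primed-state genes. Both were in the high class, with 108 ± 2.43 and 79.7 ± 3.23 TPM (SD, n = 3). The summed level of the 8 genes was between 50.2 and 55.1 TPM in a replicate, led by COL1A2 at 25.6 ± 1.67 TPM (SD, n = 3), while LUM had 0.178 and DCN 0.0985 TPM. PODXL marks podocytes and endothelium, and the podocyte genes NPHS1 and WT1 had 21 and 0 reads in all, while PECAM1 had 0.288 and CDH5 0.101 TPM. The 6 genes of that list summed to between 76.4 and 79.4 TPM, nearly all of it from KDR, a VEGF receptor, at 76.5 ± 1.71 TPM (SD, n = 3). The 4 blood genes had means of at most 0.506 TPM. ZIC and OTX factors also mark neural ectoderm, whose 7 genes summed to between 317 and 346 TPM, of which NES, a filament gene that pluripotent cells also express, had 327 ± 14.6 TPM (SD, n = 3). PAX6 had 1.74 ± 0.0850 and SOX1 2.97 ± 0.967 TPM (SD, n = 3), and NEUROG2 had no read. These levels also depend on the choice of genes. SOX11, PTPRZ1 and CDH2, also expressed in neural tissue, were placed with the further primed-state genes and were in the high class. SOX11 had 136 ± 8.51 and PTPRZ1 179 ± 11.6 TPM (SD, n = 3). The 7 mesendoderm genes summed to between 39.4 and 57.0 TPM, with none in the high class. Bulk counts cannot tell a low level in all cells from a high level in few.

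**Figure D3:**
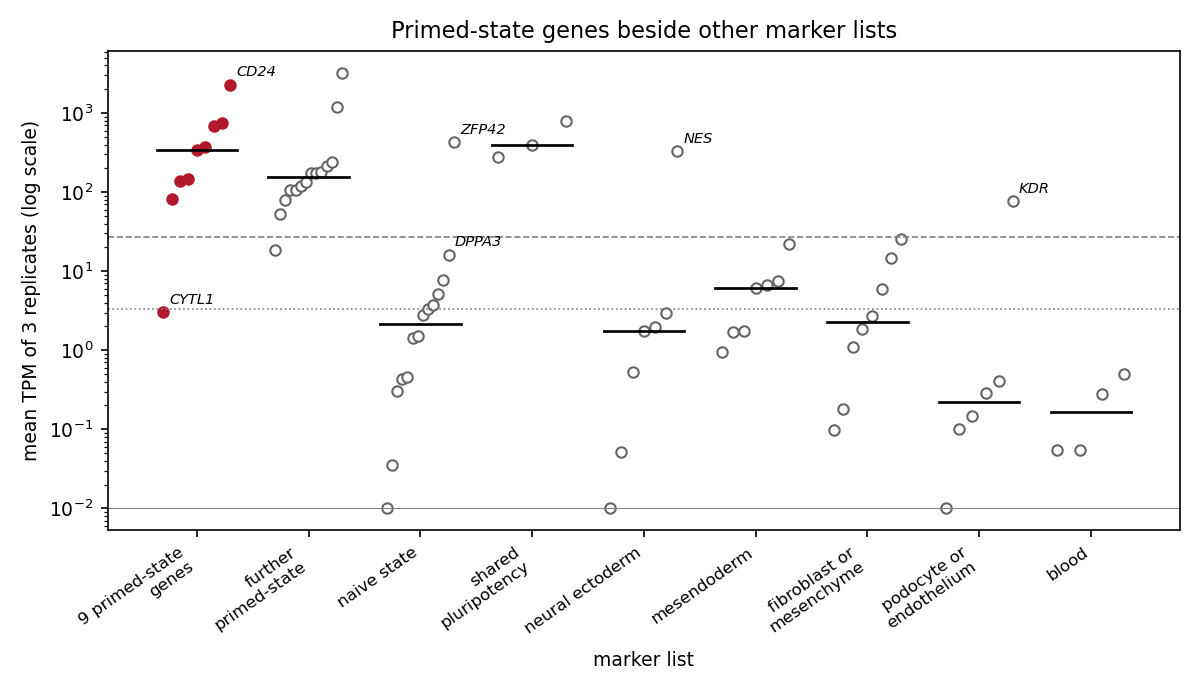
Mean TPM over 3 replicates (log scale) of each gene in the marker lists, with the 9 primed-state genes in red, medians as lines and the class boundaries as dashed and dotted lines. Genes without a read are drawn at 0.01. CYTL1 lies with the naive list, and ZFP42 is the only naive gene above the start of the high class at 26.96 TPM.

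The replicates were compared gene by gene, because replicate 3 stood apart for some of the list. In CPM, which are counts scaled to the library total, the log2 ratio of replicate 3 to the mean of replicates 1 and 2 was taken, and OTX2 was 0.59 higher in replicate 3, which is 1.51-fold. ZIC2 was 0.25, ZIC5 0.15 and CD24 0.06 higher, SALL2 was lower at -0.19 and THY1 at -0.13, and SFRP2 and PODXL were near 0, at -0.04 and -0.02. CYTL1 had too few reads for this comparison. Over 9946 genes with at least 100 reads in every replicate, the SD of this log2 ratio was 0.17, and 0.754% of the genes had a larger absolute value than OTX2. The ratio moved with the GC content of the canonical transcript across genes, with medians from -0.06 to 0.32 over 20 GC bins. For OTX2, with 42.8% GC, the median of its bin was -0.06, and OTX2 lay 0.65 above it. For ZIC2, with 58.9% GC, the bin median was 0.09, and ZIC2 lay 0.17 above it. SALL2, with 55.5% GC, lay 0.23 below its bin median. The part of GC content in these ratios was not tested. Without replicate 3, the mean of OTX2 was 70.4 TPM and that of ZIC2 348 TPM, below the 362 TPM of SALL2.

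**Figure D4:**
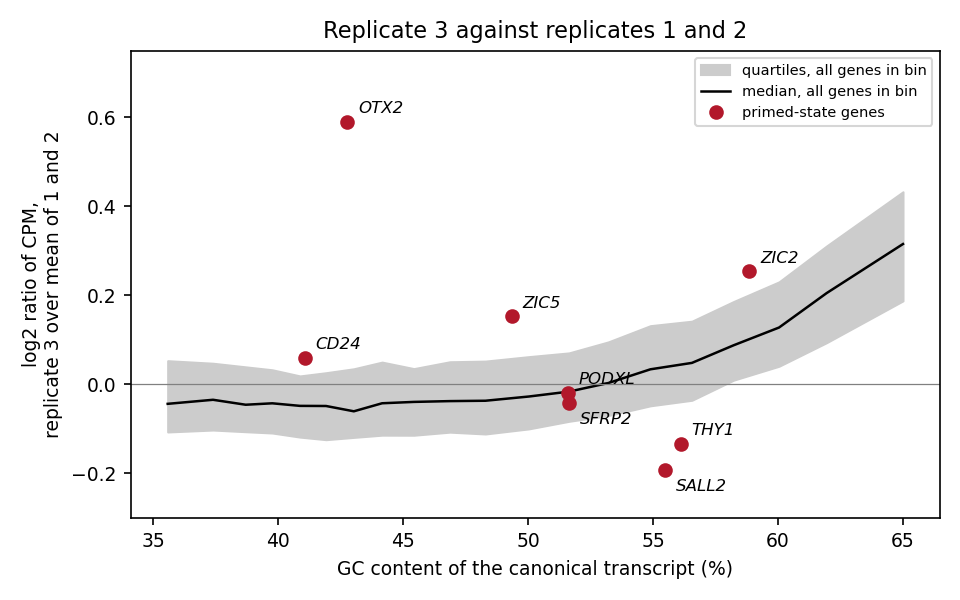
Log2 ratio of CPM in replicate 3 to the mean of replicates 1 and 2 against GC content (%) of the canonical transcript, for 8 primed-state genes in red, with the median and quartiles of all genes in 20 GC bins. OTX2, at 0.59, lies 0.65 above the median of its bin, and SALL2 and THY1 lie below theirs.

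Spread over the replicates was set beside counting error. For OTX2 the coefficient of variation of CPM was 26.0%, and counting alone would give 3.78%. For PODXL these were 1.52% and 0.874%, the smallest ratio of the 9 genes, and for CYTL1 72.3% and 36.4%. These are descriptions over 3 replicates, with no test, and reads that PCR may have copied are not independent molecules.

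Genes that share sequence with others have uncertain counts. The lncRNA gene THY1-AS1 (chromosome 11, 119417951 to 119419114, plus strand) lies with all 632 bp of its exons inside exons of THY1 on the other strand, and they make up 9.16% of the exon length of THY1. It had 576, 547 and 427 TPM, a mean of 517 ± 78.8 TPM (SD, n = 3), which is 3.57 times that of THY1. The lncRNA gene ENSG00000257096 (chromosome 14, 21521083 to 21522660, plus strand) lies likewise inside exons of SALL2, with 371 ± 22.8 TPM (SD, n = 3), which is 1.07 times that of SALL2. Whether the counting used strand is not stated, and reads of each gene and its antisense partner cannot be told apart, so the levels of THY1 and SALL2 are uncertain. In reads, THY1-AS1 had 32.6% of the count of THY1, and ENSG00000257096 had 9.43% of that of SALL2. OTX2-AS1, which shares no exon base with OTX2, had 2, 4 and 4 reads. In a search of the genome without chromosome Y for copies of at least 75 bp at 95% identity or more, 6 of the 9 canonical transcripts had none. Copies on chromosome Y, if any, are thus not counted here. CD24 had copies over 27.1% of its transcript, the longest of 371 bp at 96.2% identity on chromosome 15. Its 3 annotated pseudogenes compared, none of them on chromosome Y, had no read, as had both of OTX2. How reads from the copied bases were assigned is not stated, so the level of CD24 is uncertain. THY1 and PODXL had copies over 4.24% and 1.65% of their transcripts.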

How the data were processed

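RNA-seq counts of 3 replicates of untreated H9 cells, the only group, were analysed. Per the labels and the methods of the study, the authors trimmed reads with Trim Galore (0.4.4) and aligned them to GRCh38 with TopHat2 (2.1.1). The deposited counts are whole numbers of reads per gene and were not normalized. Not given in the sources used here are the tool that counted reads, the gene annotation it used and its strand setting. Of 58051 identifiers, 56948 matched GENCODE release 44, and all 9 genes were among them. TPM was computed from these counts with the union of exons as length. Cufflinks values of the study were not used. Total counts set the precision: 1 read on CYTL1 was worth 0.334 to 0.456 TPM.

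Genes named are the 9 members, fixed marker lists, their paralogs, and genes overlapping or copied from them, some of which are not reported here. The members and lists were chosen with earlier results of these data known. With 1 condition, no test between groups was made. Classes and TPM were tested on simulated counts of 56948 genes, where 96.6% of protein-coding genes received the class of their level. These counts had Poisson noise alone, around the observed shares of these data and with the same gene lengths. The simulation thus covers counting error only. Further spread between replicates, the choice of length, antisense overlap and copies were not simulated. Copies were searched with blastn (2.17.0) on the chromosomes without Y. Alternatives were other gene lengths, CPM, another TPM total, factors of edgeR (4.0.16) and DESeq2 (1.42.0), thinning to 10% (11 draws), the median, other classification rules and leaving out each replicate. Python 3.11.15 and R 4.3.3 were used.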

Additional observations from a re-analysis of the deposited data

How the results depend on the processing

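The number of the 9 genes in the high class, 8, was the same under all 14 alternatives. Some of these, the other TPM total and the factors of TMM and DESeq2, rescale whole replicates. They could hardly change a class or the order, so they say little about either. The number of naive-state genes in that class, 1, was the same under 13 and was 2 when all genes were classified instead of protein-coding ones, where DPPA3 joined ZFP42, as the boundary is lower. The summed share of TPM of the 9 genes, 0.479%, was 0.366% with canonical transcript lengths, 0.419% with the longest transcript, 0.469% as CPM, and 0.617% when only protein-coding genes outside the mitochondrial genome made up the total, which is smaller. Without replicate 1, 2 or 3 it lay between 0.476% and 0.482%. Factors of TMM or DESeq2, thinning to 10% and the median of the replicates moved it by less than its SD. The factors were centered on 1 and so could hardly move it.

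The order of the 9 genes was the same under 8 of 11 alternatives, among them those that rescale whole replicates. As CPM, which is not per length, SALL2 moved above SFRP2 and ZIC2. Without replicate 1, ZIC5 moved above THY1, and without replicate 3, SALL2 moved above ZIC2. Canonical lengths lowered 7 of the 9 means by more than their SD and raised none. Without replicate 1, CYTL1 was 1.87 TPM instead of 3.06 TPM. Depth limits CYTL1, with 23 reads in all. No paired analysis was possible because all libraries are of 1 group.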

Other observations

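Genes outside the list also differed between replicate 3 and the others, and they are given as values. ZIC1, ZIC2, ZIC4 and ZIC5 were all higher in replicate 3 than the mean of replicates 1 and 2, with log2 ratios of CPM from 0.15 for ZIC5 to 0.34 for ZIC4. Of the neural ectoderm genes, the 4 with at least 30 reads in all and a read in every replicate were higher, with a median of 0.39. DCX had 35, 63 and 58 reads and SOX1 had 23, 43 and 39. In CPM, DCX had 3.37, 5.24 and 6.70 and SOX1 had 2.21, 3.58 and 4.51. Both thus also rose from replicate 1 to replicate 2, so replicate 3 was not alone in differing. A rise was not particular to neural genes. By the same rule, 5 of 8 naive-state genes were higher and 3 lower, with a median of 0.36. Of 6 fibroblast or mesenchyme genes, 5 were higher and 1 lower, with a median of 0.19. Of the 7 mesendoderm genes, 4 were lower and 3 higher, with a median of -0.14, and MIXL1, a homeodomain gene of the primitive streak, had 149, 135 and 76 reads in replicates 1, 2 and 3. EOMES, a T-box gene of the same tissue, had 84, 70 and 41 reads. The naive factor gene KLF4 had 44, 73 and 96 reads, a ratio of 2.15-fold in replicate 3, and the WNT antagonist gene FRZB had 77, 131 and 150, a ratio of 1.89-fold. These genes were singled out after their values were seen, the counts are small, and with 3 replicates of 1 condition no test was made.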
